A study of Homo sapiens with 28 samples.

Results

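The genes described here encode 9 membrane pumps of the ATP-binding cassette (ABC) superfamily that carry drugs, drug conjugates, lipids or bile constituents out of cells: ABCB1, ABCB4, ABCC1, ABCC2, ABCC3, ABCC4, ABCC5, ABCC6 and ABCG2. They were taken by symbol, with earlier results of these data known, from the 63139 genes kept from the count table, and all 9 were expressed highly enough to be tested. Messenger RNA had been sequenced from HepG2, an established line from a human liver tumour, in 28 libraries of 7 groups with 4 libraries each. Serum was withdrawn from all cells for 24 h, and the exposure that followed also lasted 24 h. The groups were water, CdCl2 (cadmium chloride) at 0.5 µM with water as its control, DMSO, and TCDD (a dioxin) at 100 nM, PFOS (a perfluorinated surfactant) at 10 µM, BPA (bisphenol A) at 75 µM and TBTCl (tributyltin chloride) at 0.1 µM, which all had DMSO as their control. The protocol in the labels names 4 independent experiments but does not say that equal replicate numbers in different groups belong to the same experiment. HepG2 is a single tumour line, so its pump levels are those of this line and not of primary hepatocytes.

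ABC pumps use the energy of ATP to move substrates across a membrane against a gradient. In hepatocytes some of them sit in the canalicular membrane and empty into bile, and others sit in the basolateral membrane and return compounds to blood. Their transcription is known to be open to control by receptors that sense foreign compounds or bile acids, among them the aryl hydrocarbon receptor (AHR) and the pregnane X receptor (PXR, gene NR1I2), and by the oxidative stress factor NRF2 (gene NFE2L2).

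Among the pumps, BPA was followed by higher mRNA of 7 of 9 and TCDD by higher mRNA of 2 of 9, whereas CdCl2, PFOS, TBTCl and DMSO itself were followed by no call in either direction. Over all genes tested, 17.3% were called higher in BPA and 6.45% in TCDD. In CdCl2, PFOS, TBTCl and DMSO at most 0.143% of all genes were called in either direction. ABCC3, a basolateral exporter of glucuronide conjugates, had the largest rise in BPA, 6.38-fold. ABCG2, the breast cancer resistance protein, had the largest rise in TCDD, 2.79-fold. ABCC6 and ABCB4 were not called in BPA or in TCDD.

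Upstream sequences are shown for 4 pumps. ABCG2 had the largest TCDD rise, and ABCB1 had a smaller TCDD difference that was not called. ABCC2 and ABCC4 were called against DMSO in BPA alone, as were ABCB1, ABCC1 and ABCC5. Each sequence is the stretch of 250 bases before a RefSeq transcript start (GRCh38.p14), written 5′ to 3′ on the gene's strand. Capitals mark the AHR core GCGTG, or CACGC where it lies on the opposite strand, and the core TGACNNNGC of the antioxidant response element, the site class of NRF2, here seen on the opposite strand. These windows lie at chr4:88158910-88159159 (ABCG2, minus strand), chr7:87600885-87601134 (ABCB1, minus strand), chr10:99782390-99782639 (ABCC2, plus strand) and chr13:95301452-95301701 (ABCC4, minus strand).
ABCG2: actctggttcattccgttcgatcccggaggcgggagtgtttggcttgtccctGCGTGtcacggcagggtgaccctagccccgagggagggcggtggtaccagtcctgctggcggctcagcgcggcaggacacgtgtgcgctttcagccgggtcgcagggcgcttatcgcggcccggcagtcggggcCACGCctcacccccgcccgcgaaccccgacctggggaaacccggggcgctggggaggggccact
ABCB1: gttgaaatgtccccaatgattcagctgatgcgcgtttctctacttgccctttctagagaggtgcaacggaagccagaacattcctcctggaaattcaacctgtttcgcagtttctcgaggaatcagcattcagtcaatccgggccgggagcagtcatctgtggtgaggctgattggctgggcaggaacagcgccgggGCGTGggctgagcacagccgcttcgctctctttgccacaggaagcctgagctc
ABCC2: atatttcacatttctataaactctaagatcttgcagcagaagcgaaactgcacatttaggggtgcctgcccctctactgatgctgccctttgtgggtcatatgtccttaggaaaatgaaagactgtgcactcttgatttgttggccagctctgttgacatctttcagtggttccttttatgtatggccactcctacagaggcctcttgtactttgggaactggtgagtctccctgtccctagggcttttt
ABCC4: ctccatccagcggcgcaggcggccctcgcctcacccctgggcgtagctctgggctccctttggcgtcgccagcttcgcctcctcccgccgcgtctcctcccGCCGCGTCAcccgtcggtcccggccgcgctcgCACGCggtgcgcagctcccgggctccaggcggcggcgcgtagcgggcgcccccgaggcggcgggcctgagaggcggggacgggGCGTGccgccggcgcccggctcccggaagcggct

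The ABCG2 window held GCGTG at 198 bases before the start and its reverse complement at 64 bases before it, and the ABCB1 window held 1 match, at 53 bases. In the ABCC4 window GCGTG matches began 117 bases (opposite strand) and 34 bases before the start, and a TGACNNNGC match began 149 bases before it (opposite strand). No letters of either motif occurred in the ABCC2 window, nor in the windows of ABCC5 and ABCC6. Such matches are common: GCGTG was found on either strand in 32.2% of 35116 windows of the same length and TGACNNNGC in 10.9%, and the motifs share no letters that force them to overlap. RefSeq windows were at hand for 6 of the 9 pumps, 12 windows in all. None was at hand for ABCB4, ABCC1 or ABCC3, and ABCC3 was the other pump called in TCDD beside ABCG2. For alternative starts of the genes shown, 2 of the 5 ABCG2 windows and the other ABCB1 window held no match to either motif, and the 3 ABCG2 windows with matches cover adjoining, partly overlapping sequence. These matches are a description of letters, not of binding.

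Before any comparison, the levels of the pumps in unexposed cells were set in order on a scale that allows genes to be compared, namely CPM, the read counts scaled to library size with TMM factors, per kb of exon. In DMSO the order was ABCC2 at 33.3 ± 7.77 (SD, n = 4), ABCC1 at 15.5 ± 0.818, ABCB1 at 11.2 ± 1.65, ABCC6 at 9.54 ± 1.34, ABCC3 at 3.89 ± 0.816, ABCC5 at 2.29 ± 0.222, ABCC4 at 2.25 ± 0.296, ABCG2 at 2.19 ± 0.344 and ABCB4 at 1.75 ± 0.323 CPM per kb. ABCC2, the canalicular pump MRP2 that exports bilirubin and other conjugates, was the most abundant pump mRNA, and its 4 DMSO libraries did not overlap with those of ABCC1, the broadly expressed pump MRP1. ABCB1 and ABCC6 overlapped, as did each neighbouring pair among ABCC5, ABCC4, ABCG2 and ABCB4, so their order is not resolved by 4 libraries. Water gave the same leading 4 genes. ABCB11, the canalicular bile salt export pump of mature hepatocytes, is not among the 9 pumps and had at most 0.134 CPM in any library.

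After BPA the order changed: ABCC2 remained at the top with 90.6 ± 23.2 CPM per kb, and ABCC3 stood next at 24.8 ± 3.25, overlapping with ABCB1 (23.5 ± 5.91) and ABCC1 (22.4 ± 3.31). In TCDD ABCB1 stood next to ABCC2 with 17.4 ± 2.91 CPM per kb, overlapping with ABCC1, and ABCG2 at 6.11 ± 1.12 stood apart from the 3 pumps below it. The level summed over the 9 pumps ranged from 71.8 to 92.3 CPM per kb in DMSO, from 88.1 to 127 in TCDD and from 145 to 223 in BPA. All BPA libraries thus lay above all DMSO and TCDD libraries, and the TCDD and DMSO ranges overlapped. ABCC3 made up 4.74% ± 0.802 of this sum in DMSO, 9.18% ± 1.83 in TCDD and 13.5% ± 1.40 in BPA. The share of ABCC6 ran the other way, from 11.7% ± 1.18 in DMSO to 5.42% ± 1.18 in BPA.

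**Figure D1:**
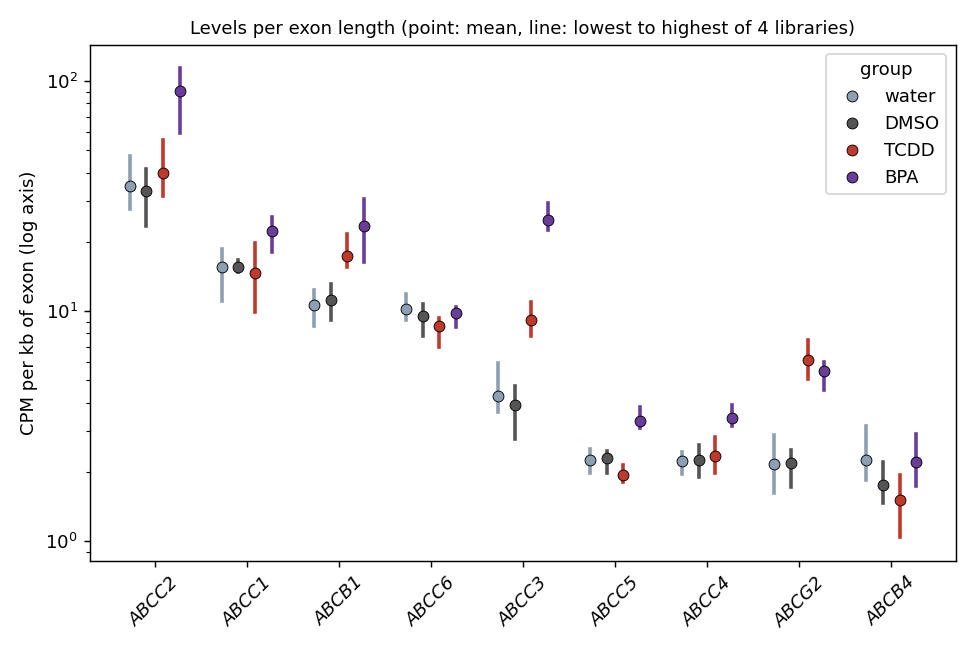
Level of each pump mRNA in CPM per kb of exon (log axis) in water, DMSO, TCDD and BPA; points are means and lines run from the lowest to the highest of 4 libraries. ABCC2 is highest in each of the groups shown, and ABCC3 moves from 3.89 CPM per kb in DMSO to 24.8 in BPA.

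The libraries held 28.9 M to 66 M counts each (median 46.5 M), so that 3 counts, used as the detection floor, corresponded to 0.0454 to 0.104 CPM. Every pump lay far above that floor in each library, the lowest single value being 8.04 CPM for ABCB4 in TCDD replicate 1, and floors cover counting error only. CYP1A1, the cytochrome P450 gene that dioxins induce, ran from 2841 to 6410 CPM in the libraries now labelled TCDD and from 1.5 to 16.1 CPM in those now labelled PFOS, a check relevant because the series text records that these labels were exchanged after deposit. Of the marker genes checked, all 9 for hepatocytes were expressed. KRT7 and CFTR (biliary), PTPRC, CD68 and CD3E (leukocyte), KDR (endothelial) and COL1A2 and DCN (stromal) stayed under 1 CPM in all libraries. Other genes of those lists were expressed: in DMSO KRT19 stood at 549 ± 44 CPM, SPP1 at 574 ± 220 CPM and LYZ at 2142 ± 245 CPM, with ACTA2 at 38.7 ± 4.63 CPM, PDGFRB at 15 ± 4.76 CPM and PECAM1 at 5.34 ± 0.84 CPM. Some moved with BPA, where KRT19 stood at 266 ± 47.6 CPM, LYZ at 1145 ± 378 CPM and PECAM1 at 2.61 ± 0.263 CPM. CD14 stood at 10.9 ± 5.35 CPM in BPA and at 4.89 ± 0.971 CPM in TBTCl, from 1.45 ± 0.165 CPM in DMSO. In TCDD PDGFRB stood at 5.43 ± 2.85 CPM, and LUM (stromal) rose to 1.01 ± 0.349 CPM from 0.0116 ± 0.0146 CPM in DMSO. All of these differences were called. Their part in the pump results was not tested. TBTCl replicate 4 stood apart from its group for several pumps, and its values are given with the TBTCl results.

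The comparison of BPA with DMSO gave the largest number of pump calls. At an edgeR adjusted p under 0.05, 7 of 9 pumps were higher and 0 lower, and the same 7 had every BPA library above every DMSO library. Over all 18849 genes tested, 35.0% were called in this comparison, 17.3% as higher, and 37.2% had groups that did not overlap. The median log2 fold change of the 9 pumps was 0.61, against -0.02 over all genes tested. Other scalings moved the split of calls over all genes, from 3268 higher and 3320 lower to 2169 and 4321 with library size alone and to 2239 and 4345 with upper-quartile scaling. These scalings moved the median of all genes by -0.12 and -0.13, and the rise of each pump relative to that median stayed within 0.01 of its value. In BPA the summed hepatocyte markers were 26561 to 42188 CPM, against 39307 to 72309 CPM in DMSO. Of the 9 markers 3 were called lower, 5 were not called and 1 was called higher. The higher one was HNF4A, at 522 ± 19.8 CPM in BPA and 375 ± 35.7 CPM in DMSO. The part of these markers in the pump results was not tested. In such bulk libraries a change in the number of cells that make a pump and a change in its mRNA per cell cannot be told apart.

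Of the canalicular pumps, ABCC2 stood at 789, 891, 694 and 465 CPM in BPA replicates 1 to 4 and at 244, 324, 292 and 184 CPM in DMSO. Its lowest BPA library lay above the highest DMSO library, and in each group replicate 2 was highest and replicate 4 lowest. The log2 fold change was 1.44 ± 0.27 (SE), a 2.72-fold rise (edgeR adjusted p = 0.000233). ABCB1, the drug pump P-glycoprotein, was at 140, 178, 134 and 94.6 CPM in BPA and at 65.7, 76.3, 64.9 and 52.9 CPM in DMSO. Its groups did not overlap either, and the rise was 2.10-fold (log2 1.07 ± 0.22, edgeR adjusted p = 0.000524).

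ABCG2, which exports sulfate conjugates and many drugs at the canalicular membrane, stood at 29.2, 30.2, 22.8 and 28.2 CPM in BPA against 12.6, 10.9, 8.66 and 12.1 CPM in DMSO. All BPA values were well above the DMSO values, with a log2 fold change of 1.32 ± 0.18 (2.50-fold, edgeR adjusted p = 3.87e-06). ABCB4, the canalicular translocator of phosphatidylcholine, differed from these in that its groups overlapped. It stood at 16.1, 16.5, 13.3 and 22.6 CPM in BPA and at 13.0, 11.4, 12.5 and 17.1 CPM in DMSO (log2 0.34, 95% confidence interval -0.10 to 0.79, edgeR adjusted p = 0.229).

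ABCC3 is the basolateral pump MRP3, which returns glucuronides and bile salts to blood. It had 239, 283, 216 and 217 CPM in BPA and 26.7, 45.2, 40.4 and 37.2 CPM in DMSO. Even the lowest BPA library was several times the highest DMSO library, and the log2 fold change was 2.67 ± 0.19 (edgeR adjusted p = 1.9e-10). ABCC4 (MRP4), a basolateral exporter of cyclic nucleotides and bile acids, changed less. Its values were 27.4, 33.6, 29.3 and 28.1 CPM in BPA against 20.0, 18.7, 16.4 and 22.5 CPM in DMSO, a 1.53-fold rise (log2 0.61 ± 0.17, edgeR adjusted p = 0.00841).

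The broadly expressed pumps ABCC1 and ABCC5 (MRP5, a cyclic nucleotide exporter) rose by the same modest factor of 1.45. ABCC1 stood at 195, 183, 137 and 164 CPM in BPA and at 118, 112, 113 and 125 CPM in DMSO (log2 0.54 ± 0.19, edgeR adjusted p = 0.0268). ABCC5 stood at 43.6, 36.0, 37.1 and 35.3 CPM against 28.1, 22.5, 27.0 and 27.4 CPM (log2 0.53 ± 0.16, edgeR adjusted p = 0.0137). These are the least firm of the 7 calls: with library size alone, ABCC1, ABCC4 and ABCC5 were not called (adjusted p = 0.120, 0.0575 and 0.0899), and upper-quartile scaling ended the call of ABCC1 (adjusted p = 0.0701). The ABCC1 call also ended without BPA replicate 1 or 2 or without DMSO replicate 1, 2 or 3 (adjusted p 0.0523 to 0.0886), and the ABCC5 call without BPA replicate 1 or DMSO replicate 2 (0.0525 and 0.0583).

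ABCC6, the liver pump whose loss causes pseudoxanthoma elasticum, had 76.8, 76.7, 64.8 and 78.5 CPM in BPA and 59.0, 80.9, 79.5 and 69.4 CPM in DMSO. The groups overlapped, and the log2 fold change of 0.04 (95% confidence interval -0.25 to 0.33, edgeR adjusted p = 0.858) turned to -0.08 with library size alone and to -0.09 with upper-quartile scaling. That interval ends below the log2 fold changes of the ABCC genes that were called, the smallest of which was 0.53. Of the differences between ABCC genes only the ABCC1 to ABCC6 ratio was tested, as given below. It did not pass adjustment (exact permutation p = 0.0286, adjusted 0.114). Reads of ABCC6 are the only ones among the 9 that near-identical copies could divert: 8.58% of its windows of 150 bases (705 of 8214) also occur in ABCC6P1 or ABCC6P2, against 0 windows for each of the other 8 genes. These windows were compared with GENCODE 29 transcripts, where ABCC6P1 is ENSG00000256340, which had a mean of 0 counts per library. Another entry of that symbol, ENSG00000291057, is absent from GENCODE 29, so its windows were not compared. That entry was counted at 12.6 ± 0.843 CPM in DMSO and 13.7 ± 0.939 CPM in BPA (edgeR adjusted p = 0.613). The ABCC6 values are uncertain by the reads that could come from ABCC6 or from a copy. In GENCODE 29 no exon of the 9 pumps overlapped an exon of another gene.

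**Figure D2:**
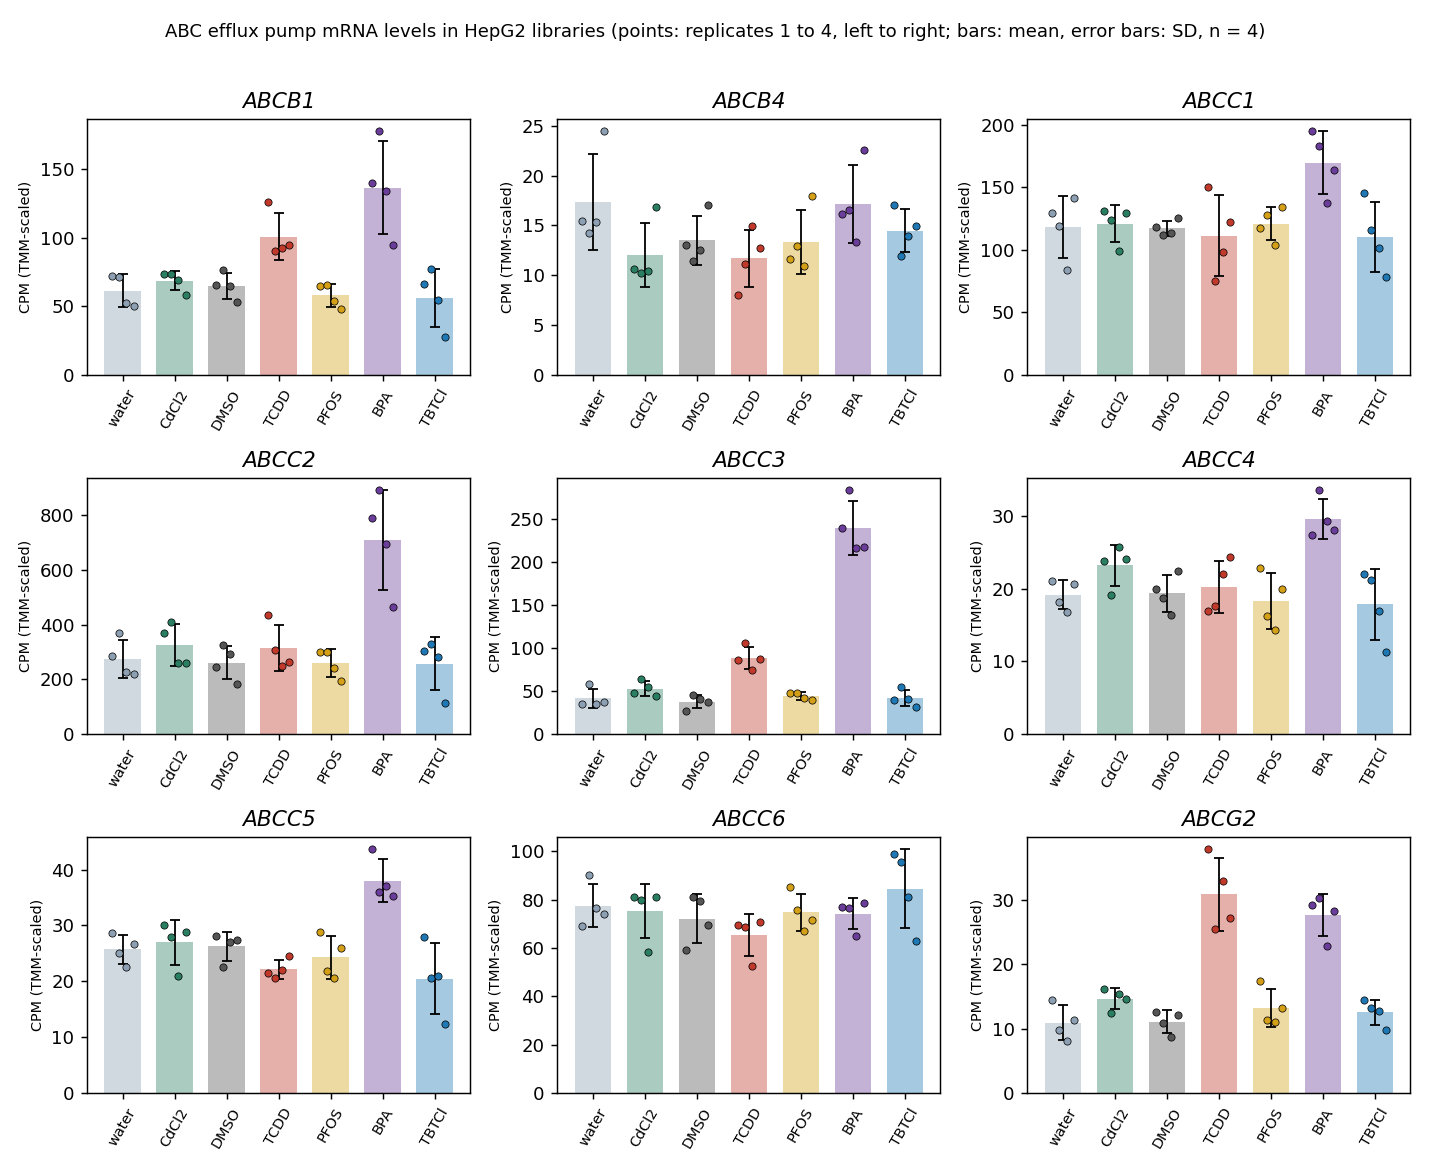
CPM of each pump gene in the 28 libraries; points are replicates 1 to 4 from left to right, bars are means and error bars SD (n = 4 per group). ABCC3 in BPA lies between 216 and 283 CPM, above every library of the other groups, and ABCC6 shows overlapping groups.

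TCDD, a ligand of AHR, was likewise compared with DMSO. The edgeR test called 2 of 9 pumps as higher and 0 as lower, where 9.25% of all genes tested were called and 6.45% were called higher. A further pump, ABCB1, had groups that did not overlap without passing the test, which made 3 of 9 beside 15.3% of all genes. The median log2 fold change of the 9 pumps was 0.06, against -0.01 over all genes.

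ABCG2 stood at 37.8, 25.5, 32.9 and 27.1 CPM in TCDD, and its highest DMSO library had 12.6 CPM. With means of 30.8 ± 5.63 and 11.0 ± 1.73 CPM, it rose 2.79-fold (log2 1.48 ± 0.18, edgeR adjusted p = 1.07e-06). ABCC3 stood at 86.2, 105, 74.7 and 87.2 CPM in TCDD, against at most 45.2 CPM in DMSO, and rose 2.36-fold (log2 1.24 ± 0.18, edgeR adjusted p = 1.66e-05). Neither call was lost under any of the alternatives run.

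ABCB1 stood at 126, 90.5, 92.4 and 94.4 CPM in TCDD, all above the highest DMSO library at 76.3 CPM. Its log2 fold change was 0.64 ± 0.22, or 1.55-fold, with an edgeR adjusted p of 0.0686 that misses the threshold. With no filter on low counts the adjusted p was 0.0496, and with the libraries of the 2 groups alone it was 0.0207. With the replicate number as a block it was 0.00258, although the numbers did not pair TCDD with DMSO. The call was not made with library size alone (0.141), with upper-quartile scaling (0.0646) or by DESeq2 (0.0551). Nor was it made with any single library left out (0.0728 to 0.198). TCDD replicate 1 held the highest ABCB1 value of its group, and also the highest ABCC1 and ABCC2 values, 150 and 434 CPM.

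The other 6 pumps had overlapping TCDD and DMSO groups. ABCC2 stood at 313 ± 84.3 CPM against 261 ± 60.9 CPM (log2 0.26, 95% confidence interval -0.29 to 0.81), and ABCC1 at 111 ± 32.3 CPM against 117 ± 6.19 CPM (-0.07, interval -0.45 to 0.31). The wide ABCC1 spread covers a range from 75.0 CPM in replicate 2 to 150 CPM in replicate 1. ABCB4 (log2 -0.21), ABCC4 (0.06), ABCC5 (-0.24) and ABCC6 (-0.14) had edgeR adjusted p from 0.439 to 0.891.

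**Figure D3:**
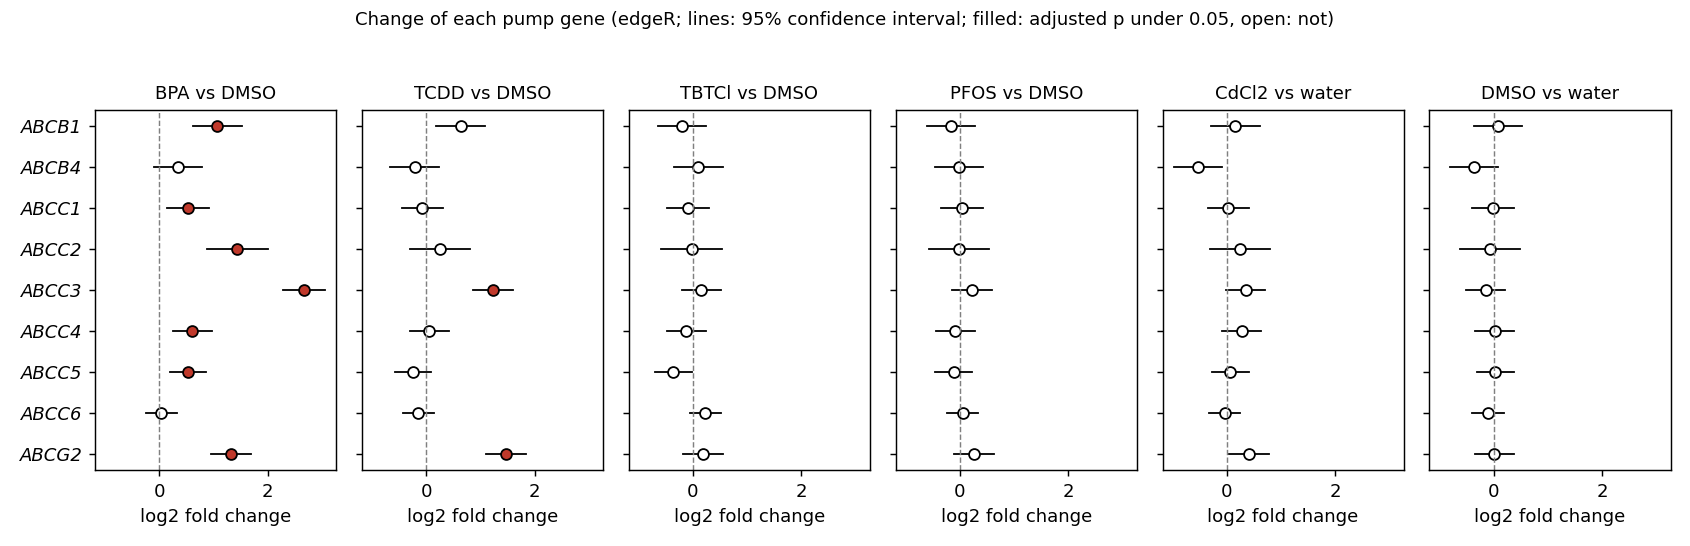
Log2 fold change of each pump gene in the 5 exposures against their vehicle and in DMSO against water; lines are 95% confidence intervals and filled points passed the edgeR test at an adjusted p under 0.05. Filled points number 7 in BPA and 2 in TCDD, and there are none in the other panels.

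Because BPA and TCDD shared their DMSO libraries, they were compared with each other directly. BPA had the higher level of 6 of 9 pumps, where 38.3% of all genes were called and 17.8% were called higher. Over all genes the split was 3364 higher and 3854 lower, against 2582 and 4494 with library size alone and 2434 and 4859 with upper-quartile scaling. The difference was largest for ABCC3 (log2 1.43 ± 0.18, edgeR adjusted p = 7.39e-07) and ABCC2 (1.18 ± 0.27, adjusted p = 0.00123), the bilirubin conjugate pump. It was 0.78 for ABCC5, 0.61 for ABCC1, 0.55 for ABCC4 and 0.55 for ABCB4 (adjusted p = 0.000587, 0.0116, 0.0144 and 0.0472). For ABCC1 and ABCB4 the BPA and TCDD groups overlapped.

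Some of these calls lie close to the threshold. ABCB4 was not called with library size alone or with upper-quartile scaling (0.46 and 0.42, adjusted p = 0.0920 and 0.121), which shifted the median of all genes as well, nor without any of replicates 1, 2 and 4 of either group (adjusted p 0.0557 to 0.188). Its log2 difference was 0.58 to 0.61 without BPA replicate 1 or 2 or TCDD replicate 4, and 0.39 to 0.54 without BPA replicate 4 or TCDD replicate 1 or 2. ABCC4 was not called with library size alone (0.46, adjusted p = 0.0659) or without BPA replicate 2 or TCDD replicate 1 (0.49 and 0.48, adjusted p 0.0526 to 0.0532), nor ABCC1 without TCDD replicate 2 (0.47, adjusted p = 0.0545). ABCG2 had no detected difference between the exposures, with a log2 value of -0.16 for BPA over TCDD and a 95% confidence interval of -0.52 to 0.20. ABCB1 was at 0.44 (interval -0.01 to 0.89, edgeR adjusted p = 0.113), and it was called without BPA replicate 4 (0.58, adjusted p = 0.0445). ABCC6 was at 0.18 (interval -0.11 to 0.47).

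CdCl2, PFOS and TBTCl were compared with their vehicles, and DMSO was compared with water. edgeR called 0 of 9 pumps in each of these 4 comparisons, and DESeq2 also called 0 in each. The share of all genes called was 0.0212% for CdCl2, 0.0159% for PFOS, 0.143% for TBTCl and 0% for DMSO against water, so few calls of any gene were made there. With the replicate number as a block these comparisons had 28, 84, 179 and 0 calls over all genes, and still 0 of 9 pumps. At an unadjusted edgeR p under 0.05 there were 2 pumps in CdCl2, 0 in PFOS, 1 in TBTCl and 0 in DMSO, beside 4.99%, 5.53%, 15.6% and 2.29% of all genes.

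In CdCl2 these were ABCB4 and ABCG2. ABCB4 stood at 10.6, 10.2, 10.4 and 16.9 CPM against 15.4, 14.2, 15.3 and 24.5 CPM in water (log2 -0.53, unadjusted p = 0.0221, edgeR adjusted p = 0.898). Replicate 4 was highest in each group and made the ranges overlap. ABCG2 stood at 16.2, 12.4, 15.3 and 14.6 CPM against 14.5, 9.77, 8.13 and 11.3 CPM (log2 0.42, unadjusted p = 0.0259, edgeR adjusted p = 0.898). In PFOS the pumps ranged from -0.17 (ABCB1) to 0.27 (ABCG2) on the log2 scale, with adjusted p of 1 throughout. DMSO against water ran from -0.36 (ABCB4) to 0.08 (ABCB1), also with adjusted p of 1.

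ABCC5 was the pump with an unadjusted p under that threshold in TBTCl, at 27.9, 20.6, 20.9 and 12.4 CPM. Its log2 fold change against DMSO was -0.36 (edgeR adjusted p = 0.294), and without TBTCl replicate 4 it was -0.18 (adjusted p = 0.968). TBTCl replicate 4 was the lowest of its group for ABCC5, and likewise for ABCB1 (27.6 CPM, others 54.6 to 76.8), ABCC2 (114 CPM, others 282 to 328) and ABCC4 (11.3 CPM, others 16.9 to 22.0). This library was also the lowest for ABCC1 (77.8 CPM), ABCC3 (31.4 CPM), ABCC6 (63.1 CPM) and ABCG2 (9.75 CPM), but not for ABCB4. It also had the lowest TMM factor of the series, 0.861. Without this library the count of pumps called in TBTCl against DMSO was still 0.

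Set against TBTCl in place of DMSO, BPA had higher levels of 7 pumps (34.8% of all genes called, 16.7% higher) and TCDD of 3 (12.8% and 7.26%). Over all genes the first of these had 3151 higher and 3413 lower calls (2323 and 4553 with upper-quartile scaling), and the other 1368 and 1052 (1547 and 720 with library size alone). In TCDD these were ABCG2 (log2 1.30), ABCC3 (1.09) and ABCB1 (0.84 ± 0.22, edgeR adjusted p = 0.0108). The ABCB1 call ended when the libraries of the 2 groups were fitted alone (adjusted p = 0.126). Without TBTCl replicate 4, ABCC1 was no longer called in BPA over TBTCl (0.49, adjusted p = 0.0513, from 0.63 with all libraries), as was also the case with the libraries of the 2 groups alone (0.64, adjusted p = 0.0508). Without TBTCl replicate 4, ABCC6 was called as lower in TCDD than in TBTCl (-0.50, adjusted p = 0.0132, from -0.37 and 0.0822). The counted ABCC6P1 entry (ENSG00000291057), whose windows were not compared with ABCC6, showed the same direction in TCDD against TBTCl (-0.79, edgeR adjusted p = 0.000932).

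Beyond the group means, the pumps varied among libraries in a way tied to the replicate number. ABCC3 was highest in replicate 2 in 7 of 7 groups. ABCB1 was lowest in replicate 4 in 6 of 7 groups, TCDD being the exception, and ABCC2 in 5 of 7. ABCB4 ran the other way and was highest in replicate 4 in 5 of 7 groups. ABCG2 was highest in replicate 1 in every group but BPA, and ABCC5 in every group but TCDD.

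These shared deviations show in the correlations over the 28 libraries after the group means were removed. The value was 0.931 for ABCB1 with ABCC2, -0.537 for ABCB1 with ABCB4 and -0.603 for ABCB4 with ABCC2. Such libraries share replicate numbers, scaling and depth, and the correlations are descriptions. ABCB1 and ABCB4, which encode a drug pump and a lipid pump of similar build, thus deviated in opposite directions although they are chromosomal neighbours.

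**Figure D4:**
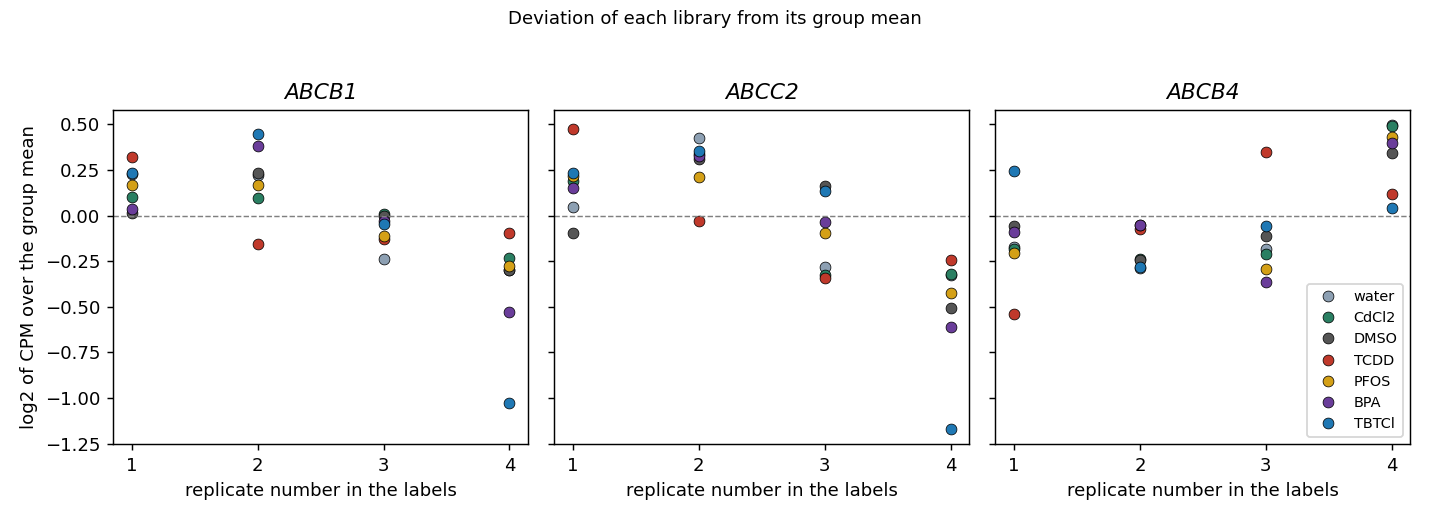
Log2 ratio of each library's CPM to its group mean, by replicate number, for ABCB1, ABCC2 and ABCB4; colours are the 7 groups. In replicate 4, ABCB1 and ABCC2 lie below 0 and ABCB4 lies above 0 in all 7 groups.

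ABCB1 (ENSG00000085563) lies on chromosome 7 from 87503633 to 87713323 and ABCB4 (ENSG00000005471) from 87401697 to 87480435 (GRCh38, GENCODE), both on the minus strand and 23197 bases apart. The ratio of ABCB1 to ABCB4 CPM ran from 3.09 to 6.71 in DMSO, from 4.19 to 10.8 in BPA and from 6.18 to 15.7 in TCDD. The log2 ratio differed from DMSO by 0.72 in BPA and 0.86 in TCDD, with p = 0.114 and 0.0571 in a two-sided exact permutation test over libraries (adjusted over 4 tests 0.152 and 0.114, n = 4 per group). Paired by replicate number, the ratio was higher in BPA than in DMSO in 4 of 4 pairs, by 0.44 to 0.95 on the log2 scale (exact sign-flip permutation p = 0.125, the smallest that 4 pairs can give). ABCC1 (ENSG00000103222, chromosome 16, 15949577 to 16143074, plus strand) and ABCC6 (ENSG00000091262, 16148928 to 16223522, minus strand) have ends 5853 bases apart. Their ratio ran from 1.38 to 2.00 in DMSO and from 2.09 to 2.53 in BPA, without overlap (difference of log2 ratios 0.48, exact permutation p = 0.0286, the smallest that 4 against 4 libraries can give, adjusted 0.114, n = 4). In TCDD the difference was 0.03 (exact permutation p = 0.943, n = 4). Paired by replicate number, the ABCC1 to ABCC6 ratio was higher in BPA than in DMSO in 4 of 4 pairs. The differences were 0.21 to 0.79 on the log2 scale (exact sign-flip permutation p = 0.125).

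Genes whose pattern over the 28 libraries was most like that of each pump were sought among 10585 genes with a mean of at least 5 CPM, by Pearson correlation of log2(CPM + 0.5). For ABCC2 these were PLEKHM1 (r = 0.955) and SRXN1 (0.933), the gene of sulfiredoxin, which repairs oxidised peroxiredoxins. For ABCB1 they were EPB41L4B (0.938) and TXNRD1 (0.933), the gene of a thioredoxin reductase. ABCG2 was most like NR3C1 (0.934), the glucocorticoid receptor gene, and VAT1 (0.925), and ABCC3 like GAREM1 (0.954) and MOCOS (0.953).

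For ABCC5 the genes most alike were ZNF609 and INVS (both 0.945), for ABCC4 KIAA0232 (0.916) and POGK (0.897), for ABCC1 TULP4 and NCOR1 (both 0.887), and for ABCB4 CHSY1 (0.856) and SERPINH1 (0.850). ABCC6 had the weakest likeness, with BRF1 (0.706) and SARDH (0.690). With group means removed, the ABCC2, ABCB1, ABCC4 and ABCC5 values stayed at 0.834 or more, and the ABCG2 and ABCC3 values fell to between 0.534 and 0.625. The libraries share experiments and scaling, so these values describe likeness only.

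The transcription factors reported to act on ABC pumps were examined as a list of 25 genes, 23 of them tested. In BPA 14 were called higher and 0 lower (1 lower with upper-quartile scaling), with a median log2 fold change of 0.48, where 17.3% of all genes were called higher. NR3C1 rose from 17.3 ± 2.06 to 36.1 ± 1.88 CPM (edgeR adjusted p = 2.24e-07). JUN, a subunit of the AP-1 factor, rose 2.49-fold, and NR1H3, the oxysterol receptor LXR alpha, 2.08-fold. In TCDD 4 were called higher, where 6.45% of all genes were, among them NR3C1 (2.68-fold), the retinoid X receptor gene RXRA (2.21-fold) and NFE2L2 (1.67-fold). The 1 called lower was NR1H4, the bile acid receptor FXR, at 11.3 ± 3.46 CPM in TCDD against 21.5 ± 3.37 CPM in DMSO (edgeR adjusted p = 0.0017), and it was higher in BPA, at 51.7 ± 0.847 CPM (adjusted p = 2.29e-05). The PXR gene NR1I2 was at 23.9 ± 2.97 CPM in DMSO, 24.3 ± 4.56 CPM in TCDD and 18.4 ± 1.41 CPM in BPA.

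Readout genes of 3 such pathways were counted beside the pumps. Of 10 NRF2 readouts, 8 were higher in BPA and 4 in TCDD, with 0 lower in either, beside 17.3% and 6.45% of all genes called higher in these comparisons. GCLC, which starts glutathione synthesis, rose 5.84-fold in BPA, and HMOX1, which degrades haem, rose 3.09-fold in TCDD. Of 7 AHR readouts, 6 were higher in TCDD and 3 in BPA, where the other 4 were not called. The 3 in BPA were CYP1A1, CYP1A2 (at 0.539 ± 0.281 CPM) and NQO1, which is also counted among the NRF2 readouts. CYP1A1 stood at 242 ± 176 CPM in BPA, against 8.37 ± 6.54 CPM in DMSO and 4613 ± 1486 CPM in TCDD. The list of PXR and CAR readouts had 6 of 9 genes tested, and 4 of them were higher in BPA and 1 in TCDD, CYP3A5 rising in each (5.36-fold and 2.57-fold). These counts were 2 in BPA without BPA replicate 2, and 0 in TCDD without TCDD replicate 1 or without DMSO replicate 1 or 4. In BPA the median log2 fold changes were 2.10 for NRF2, 1.09 for AHR and 1.08 for PXR and CAR readouts, against -0.02 over all genes.

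Other transporters were counted in the same way, beside 35.0% of all genes called in BPA and 9.25% in TCDD. Of 19 further exporters of the ABCB, ABCC and ABCG families, 12 were tested, and in BPA 1 was higher (ABCB8, 1.38-fold, a call lost with library size alone) and 2 were lower (ABCB9 and ABCC11, with fold values of 0.762 and 0.411), while in TCDD 0 were called. The 11 tested ABCA and ABCD genes had 3 higher and 2 lower in BPA, with a median of -0.38. ABCA5, a transporter of endolysosomal membranes, was higher in each exposure, 2.81-fold in TCDD and 1.80-fold in BPA. ABCG1, a cholesterol exporter, was called in TBTCl at 0.924 ± 0.370 CPM against 0.157 ± 0.0942 CPM in DMSO (edgeR adjusted p = 0.0134).

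Uptake carriers and routes of exit other than ABC pumps were counted as well. The list of uptake carriers had 11 tested genes, of which 2 were higher and 0 lower in BPA (1 lower with library size alone or upper-quartile scaling), a share near the 17.3% of all genes. In TCDD 3 were higher and 1 lower, where 6.45% of all genes were called higher. Whichever single TCDD or DMSO library was left out, the count higher in TCDD was 2. Those higher in BPA were SLC22A18 and SLC47A1. SLC47A1, the proton-coupled cation exporter MATE1, is not an uptake carrier in hepatocytes and stood on the list of exit routes too, and it rose 1.93-fold in BPA and 1.45-fold in TCDD. All 6 exit routes were tested, and 3 were higher in BPA and 2 in TCDD, with 0 lower in either. Beside them 17.3% and 6.45% of all genes were called higher. Whichever single BPA or DMSO library was left out, the BPA count was 2. Besides SLC47A1 and SLC51B, those called were ATP8B1 in BPA (15 ± 1.33 CPM) and SLC47A2 in TCDD (0.451 ± 0.0961 CPM). SLC51B, a subunit of the basolateral bile acid exporter, rose from 3.42 ± 1.53 to 28.3 ± 6.56 CPM in BPA and to 22.6 ± 16.5 CPM in TBTCl, the latter with a range of 8.61 to 46.0 CPM. Of 6 scaffold proteins that hold pumps at the membrane, PDZK1 was called lower in BPA (log2 -1.66, with overlapping groups) and NHERF2 higher in TCDD (1.23).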

How the data were processed

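Messenger RNA of HepG2 cells was sequenced as directional poly(A) libraries, per the labels' protocols. The values are whole-number read counts per gene, deposited by the authors. The submitters' processing notes name fastp, STAR, HTSeq and DESeq2 with GRCh38. Not given in the sources used here were versions, annotation and strand setting. The last of 63140 genes was left out, because its line may be incomplete.

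The pumps and all lists were chosen with earlier results of these data known. Tests used edgeR 4.0.16 in R 4.3.3 (quasi-likelihood, TMM, filterByExpr with a minimum count of 10, 28 libraries, 21 residual degrees of freedom, biological coefficient of variation 22%), and p-values were Benjamini-Hochberg adjusted over 18849 genes. Alternatives were DESeq2 1.42.0, other scalings, no filter, a replicate block, the 2 groups alone, and each library left out. All 9 pumps, up to 3 called genes of smallest p per list, CYP1A1 and 2 most alike genes per pump are named. NR1I2, NR1H4, ABCB11 and the expressed markers were named after their values were seen. Equal replicate numbers paired BPA, PFOS and TBTCl with DMSO, and CdCl2 and DMSO with water (deviations correlated at 0.123 to 0.627) but not TCDD with DMSO (-0.212 to 0.439). Lengths and coordinates are from GENCODE 29 (GRCh38) and sequences from RefSeq (GRCh38.p14). The test was checked on simulated counts.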

Additional observations from a re-analysis of the deposited data

Results flagged for a closer look

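In 7 of 63 sets of 4 libraries (9 pumps in 7 groups), a single library stood off from the other 3 by more than Dixon's criterion allows, and chance alone flags about 1 set in 20. ABCB1 had 126 CPM in TCDD replicate 1, where the others had 90.5 to 94.4 CPM. ABCB4, the phosphatidylcholine translocator, was high in replicate 4 of water (24.5 CPM, others 14.2 to 15.4) and of CdCl2 (16.9 CPM, others 10.2 to 10.6). ABCC3 was high in water replicate 2 (57.4 CPM, others 35 to 37.4). ABCC6 was low in replicate 3 of CdCl2 (58.5 CPM, others 79.7 to 81.3), of TCDD (52.6 CPM, others 68.7 to 70.9) and of BPA (64.8 CPM, others 76.7 to 78.5). These ABCC6 values share a replicate number and a direction, and no cause was tested.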

How the results depend on the processing

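Counts of pumps called kept within 1.5 times of their value in 125 of 126 repeats of the test, and the exception was BPA against DMSO with library size alone, where 4 pumps were called. That scaling moved the median of all genes by -0.12, and the cause was not tested further. Among 658 repeats for single pumps, 617 kept direction and side of the threshold, 26 lost a call, 7 gained one and 8 changed sign. The changes of sign concerned values near 0 that were not called: ABCC6 in BPA (-0.08 with library size alone, -0.09 with upper-quartile scaling, and -0.05 to 0.10 with single libraries left out), ABCC1 in TCDD (-0.26 to 0.07), ABCC4 in TCDD (-0.06 to 0.13) and ABCB1 in DMSO against water (-0.00 to 0.17). With the replicate number as a block, no pump call against the vehicle changed but that of ABCB1 in TCDD (0.65, adjusted p = 0.00258), where the numbers did not pair the libraries. Under the block ABCB1 was also called in BPA against TCDD (0.40, adjusted p = 0.0262) and ABCC6 in TCDD against TBTCl (-0.37, adjusted p = 0.0440), and no other pump call changed. The ratio differences in BPA, 0.72 for ABCB1 to ABCB4 and 0.48 for ABCC1 to ABCC6, were also tested with pairs as a block. Each had p = 0.125 in an exact sign-flip permutation, a test chosen after seeing the data. Counts over all genes moved more. CdCl2 had 4 calls against 15 with DESeq2, 25 with no filter, 28 with the block and 0 with the 2 groups alone. PFOS had 3 against 127, 78, 84 and 0, and 23 with upper-quartile scaling. TBTCl had 27 against 250, 111, 179 and 1, and 9 with library size alone. TCDD had 1743 against 2722 with the block, DMSO against water 0 against 1 with DESeq2, and with the 2 groups alone BPA against TBTCl had 3637 for 6564 and TCDD against TBTCl 925 for 2420. The data hold mRNA only, with 4 libraries per group. For pumps that were not called, differences within the confidence intervals given are not excluded.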
